A study of Homo sapiens with 8 samples.

Results

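The long noncoding RNA genes with a formal name were examined for splicing in JSL1 cells, a monoclonal line derived from the human T lymphocyte line Jurkat. Members were all genes whose symbol in the authors' deposited tables starts with SNHG or LINC or ends in -AS1, -AS2 or -IT1. There were 231 of them among 11431 genes: 151 ending in -AS1, 4 in -AS2, 1 in -IT1, 58 LINC genes and 17 SNHG genes. No name of this form was a clone name (0 excluded), and the naming rule itself uses no value of splicing. The study, whose title asks which transcripts CELF2 acts on in T cells, sequenced polyadenylated RNA in 8 libraries. They form 4 groups of 2: CELF2-depleted cells with PMA, control cells with PMA, CELF2-depleted cells without PMA, and control cells without PMA. Depleted cells carried hairpins against CELF2 that doxycycline induces, from a lentivirus integrated into the genome, and PMA, a phorbol ester used to mimic T cell activation through protein kinase C, was given at 20 ng/mL for 48 hours. The sources used here do not say whether control cells carried a hairpin or received doxycycline, or whether the 2 libraries of a group were separate cultures.

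CELF2 is an RNA-binding protein that binds sequences rich in U and G and shifts splice site choice in nearby exons. Long noncoding RNAs are capped, spliced and mostly polyadenylated like messenger RNAs, but no reading frame constrains which of their exons are joined. Genes named SNHG host small nucleolar RNAs, which are trimmed out of their introns after splicing. The endings AS and IT mark genes that lie antisense to, or within an intron of, the protein-coding gene they are named after, and LINC marks genes between coding genes. In GENCODE release 29 the IDs of 230 members were found. Of these, 211 had a long noncoding type, 10 were transcribed pseudogenes, CRHR1-IT1 and CDIPT-AS1 among them, and 9 had since been typed as protein-coding, MMP24-AS1 among them, so the name is not a proof of a noncoding transcript.

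Each line of the tables describes a local splicing variation, or LSV: the competing junctions, and where present the retained intron, at the donor or the acceptor side of 1 exon. Every percentage of a junction below is the authors' share of that junction in its LSV for a whole group, both libraries pooled, so no spread between libraries and no read number can be given. Shares are bounded at 2.5% and 97.5% in the tables. The tables also give the posterior probability that depleted and control cells differ by 20 points or more, and an LSV counts as called below if this reached 0.95 at any of its junctions. Members had 743 LSVs in 201 genes with PMA and 737 LSVs in 209 genes without PMA, with 179 genes and 626 LSVs listed in both tables. The targeted gene could not be checked by level, since the tables hold no expression. For CELF2 itself 3 of 16 LSVs were called with PMA and 0 of 11 without, with posteriors without PMA of at most 1.38e-05 in the authors' deposited table. Of 8 genes that define T cells, 7 had an LSV in each table (CD2 was not listed). Positions are on hg19, named in the submitters' processing notes.

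The sequences below show the exon ends joined by the competing junctions of 8 members with large called differences, chosen after their values were seen, since these letters are what the transcripts exchange. Each line gives 20 bases on either side of a junction, 5′ to 3′ in the RNA sense with T for U, from GENCODE release 29 transcripts of the same gene whose intron has the same, unique length as the junction in the table. Lower case is the exon that the competing junctions share, and capitals mark the side that differs.
LINC00426, chr13:30946511-30947920, minus strand: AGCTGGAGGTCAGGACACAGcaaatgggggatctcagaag
LINC00426, chr13:30946511-30949604, minus strand: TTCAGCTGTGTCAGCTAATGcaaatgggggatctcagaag
LINC00426, chr13:30946511-30946959, minus strand: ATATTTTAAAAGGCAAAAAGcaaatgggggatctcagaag
RUNDC3A-AS1, chr17:42381575-42384660, minus strand: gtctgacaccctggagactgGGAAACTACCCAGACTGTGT
RUNDC3A-AS1, chr17:42382411-42384660, minus strand: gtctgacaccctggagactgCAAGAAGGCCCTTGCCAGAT
RASSF8-AS1, chr12:26108174-26109572, minus strand: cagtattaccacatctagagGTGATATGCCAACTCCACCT
RASSF8-AS1, chr12:26109280-26109572, minus strand: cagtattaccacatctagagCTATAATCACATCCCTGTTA
HHIP-AS1, chr4:145564886-145566859, minus strand: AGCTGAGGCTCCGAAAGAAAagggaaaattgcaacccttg
HHIP-AS1, chr4:145564886-145566440, minus strand: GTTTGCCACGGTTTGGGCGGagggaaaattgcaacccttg
CRHR1-IT1, chr17:43716886-43717755, plus strand: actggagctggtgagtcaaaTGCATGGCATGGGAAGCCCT
CRHR1-IT1, chr17:43716886-43723267, plus strand: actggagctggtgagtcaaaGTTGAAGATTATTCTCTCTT
GABPB1-AS1, chr15:50647742-50648297, plus strand: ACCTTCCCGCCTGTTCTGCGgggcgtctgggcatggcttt
GABPB1-AS1, chr15:50647962-50648297, plus strand: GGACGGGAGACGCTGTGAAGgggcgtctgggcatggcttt
C1RL-AS1, chr12:7267815-7271495, plus strand: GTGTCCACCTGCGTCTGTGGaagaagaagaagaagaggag
C1RL-AS1, chr12:7271273-7271495, plus strand: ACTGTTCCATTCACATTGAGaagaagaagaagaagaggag
DHRS4-AS1, chr14:24410367-24422783, minus strand: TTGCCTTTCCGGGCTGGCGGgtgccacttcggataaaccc
DHRS4-AS1, chr14:24410367-24422983, minus strand: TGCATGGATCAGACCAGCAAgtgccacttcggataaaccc

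A further set shows whole stretches that are kept or left out. The first is the skipped exon of RUNDC3A-AS1, 63 nucleotides at chr17:42382349-42382411, and the second that of RASSF8-AS1, 121 nucleotides at chr12:26109160-26109280, both in lower case throughout. The third is the end of the exon of LINC00471 that has a pair of donor sites, with the 15 nucleotides between the donors at positions 232378808 and 232378793 of chromosome 2 in capitals and the next exon after them.
RUNDC3A-AS1 exon: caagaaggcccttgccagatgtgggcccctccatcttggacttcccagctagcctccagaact
RASSF8-AS1 exon: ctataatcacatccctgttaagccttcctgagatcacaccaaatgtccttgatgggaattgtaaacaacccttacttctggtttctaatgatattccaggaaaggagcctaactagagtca
LINC00471 donors: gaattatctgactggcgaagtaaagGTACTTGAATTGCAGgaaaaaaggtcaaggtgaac

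With PMA, 24 named long noncoding RNA genes were called between CELF2-depleted and control cells, in 32 of the 743 member LSVs. The call covered 11.9% of the 201 member genes, beside 10.6% of all genes in the table, and 4.31% of the member LSVs, beside 1.87% of all LSVs. The share of genes thus lay near that of the whole table while the share of LSVs was higher. Members had fewer LSVs per gene, with a median of 3 against 7 over all genes. Among genes with 6 or more LSVs, 9 of 35 members were called (25.7%), against 14.3% of all such genes. Among genes with 1 or 2 LSVs the shares were 7.0% and 3.45%, and with 3 to 5 they were 12.1% and 6.48%.

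Without PMA, 17 member genes were called, in 19 of 737 LSVs. That is 8.13% of 209 member genes beside 6.2% of all genes, and 2.58% of member LSVs beside 0.985% of all LSVs. Long noncoding genes outside the naming rule, mostly with clone names, had called shares of 4.58% of LSVs with PMA and 2.27% without. Protein-coding genes had 1.78% and 0.945%. Counted by gene the order was the other way. Of these other long noncoding genes 9.43% were called with PMA and 4.83% without, against 10.4% and 6.18% of protein-coding genes. These shares are descriptions of 1 comparison each, with no test between classes.

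**Figure D1:**
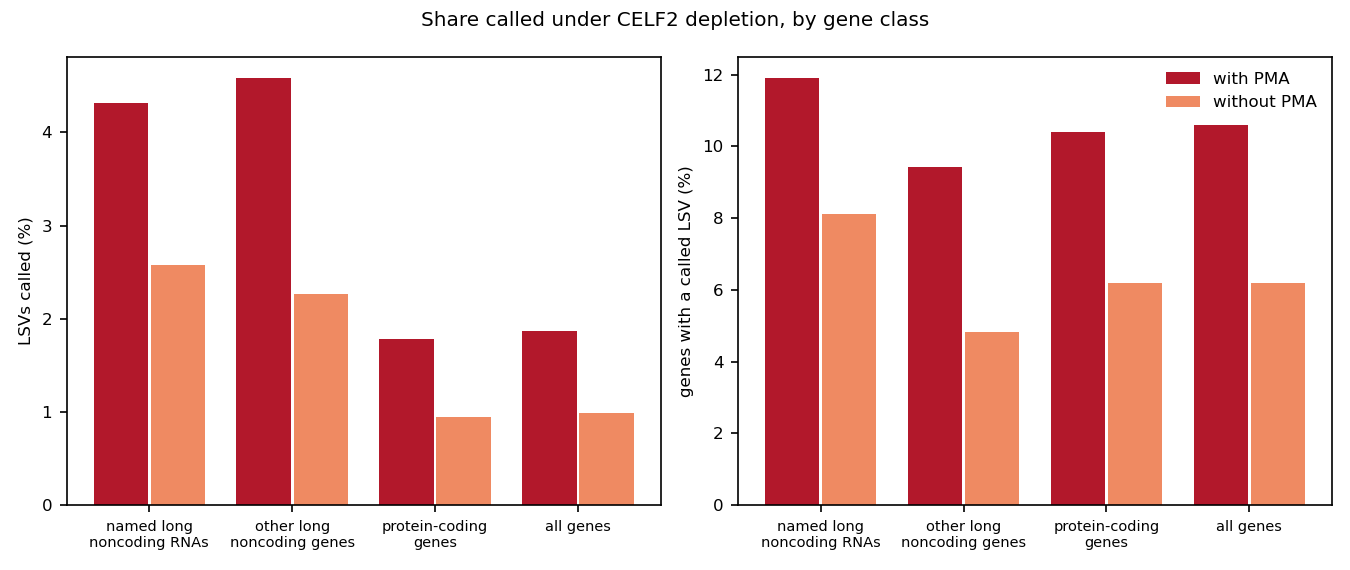
Share of LSVs (left) and of genes (right) called under CELF2 depletion, in percent, for the named long noncoding RNA genes, other long noncoding genes, protein-coding genes and all genes, with PMA (dark) and without (light). Long noncoding genes of both kinds stand above coding genes in the share of LSVs, at 4.31% and 4.58% with PMA against 1.78%. The shares of genes lie closer together. There the named genes stand above coding genes and the other long noncoding genes below, at 11.9% and 9.43% with PMA against 10.4%.

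Member LSVs also differed in make-up from the rest of the tables. A retained intron was among the choices in 49.0% of member LSVs with PMA and in 48.6% without, against 30.1% and 29.7% of all LSVs. A junction absent from the annotation was present in 74.8% and 74.4%, against 67.2% and 66.9%. In control cells no junction exceeded 80% in 34.7% of member LSVs with PMA and in 33.0% without, against 14.4% and 13.7% of all LSVs. Long noncoding genes outside the naming rule lay on the same side of the whole table in all 3 respects. Their LSVs had a retained intron in 62.3% with PMA and 60.7% without, an unannotated junction in 81.3% and 80.0%, and no junction over 80% in control cells in 27.7% in both states. No test was run between classes. The largest difference between depleted and control cells at any junction had a median of 12.7 points over member genes with PMA, against 9.8 over all genes, and of 10.6 points without PMA, against 8.1.

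LINC00426, an intergenic gene on chromosome 13, had the largest called difference with PMA. A shared exon accepted 3 upstream exons. The junction from position 30947920 carried 73.2% in depleted cells, against 15.5% in control cells. That from position 30949604 carried 7.0% in depleted cells, against 53.7% in control cells, and the third, from 30946959, carried 19.8% in depleted and 30.8% in control cells. Depletion therefore went with an exchange of the first 2 capital stretches printed for LINC00426. Its posterior probability was 1.0 for both junctions in the authors' deposited table, and the LSV was not listed without PMA.

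CTBP1-AS2, which lies beside the gene of the corepressor CTBP1, kept more of an intron of 79 nucleotides at positions 1244235 to 1244313 of chromosome 4. The intron made up 79.5% of the LSV entering the downstream exon in depleted cells, against 25.4% in control cells. From the upstream exon it made up 84.6% in depleted cells and 50.8% in control cells, and both LSVs were called. TPT1-AS1, antisense to the gene of translationally controlled tumour protein, had 5 called LSVs, more than any other member. Its intron at positions 45965038 to 45965166 of chromosome 13 stood at 48.1% in depleted and 17.1% in control cells from the upstream exon, and at 46.9% in depleted and 21.6% in control cells from the downstream exon. A longer intron before it, at 45963956 to 45964848, stood at 93.1% in depleted and 64.1% in control cells from the downstream exon. From the upstream exon the expected change of that intron was 0.2 points, with a posterior of 4.49e-05 in the authors' deposited table. A skipping junction of TPT1-AS1 that passes over the exon at 45964849 to 45965037 carried 36.0% in depleted cells, against 3.0% in control cells. Among the junctions entering its acceptor exon, the same TPT1-AS1 junction stood at 13.7% in depleted and 2.5% in control cells and was not called. Entering the exon that ends at 45963955, the junction from 45957973 fell to 40.5% in depleted cells, against 77.2% in control cells, while that from 45957370 rose to 44.2%, against 13.5%.

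MAP3K14-AS1, named after the kinase of the noncanonical NF-kappaB pathway, had an intron of 87 nucleotides at 62.6% in depleted cells and 25.6% in control cells. Read from its upstream exon, the junction that removes this intron carried 26.3% in depleted and 40.9% in control cells, with a posterior of 0.157 in the authors' deposited table. In all, 6 member LSVs with PMA had a called retained intron that was higher in depleted cells, 1.65% of the 364 with an intron, beside 0.945% in the whole table. They belonged to CTBP1-AS2, MAP3K14-AS1 and TPT1-AS1.

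Retained introns were lower in depleted cells in 7 member LSVs with PMA, 1.92% of 364, beside 0.662% in the whole table. FGD5-AS1 had an intron of 932 nucleotides at 21.6% in depleted and 48.5% in control cells. In MATN1-AS1, beside the gene of the cartilage protein matrilin 1, the intron made up 7.4% in depleted and 42.4% in control cells. HOXB-AS1, from the cluster of HOXB developmental transcription factors, kept an intron of 393 nucleotides in 68.6% in depleted and 97.2% in control cells. PXN-AS1, named after the focal adhesion protein paxillin, had an intron share of 9.4% in depleted and 40.1% in control cells. At the same exon of PXN-AS1 the junction reaching position 120650178 carried 71.2% in depleted cells, against 35.7% in control cells. Seen from the downstream exon that junction carried 7.8% in depleted and 8.6% in control cells, so it rose among the junctions leaving 1 exon but not among those entering the other. TMEM161B-AS1 and ADIRF-AS1 are described below.

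Whole exons were exchanged or skipped in most other called members. RUNDC3A-AS1 included its exon of 63 nucleotides less: the inclusion junction carried 6.9% in depleted cells, against 41.6% in control cells. RASSF8-AS1, named after a Ras-association domain gene, included its exon of 121 nucleotides at 36.7% in depleted and 73.2% in control cells. These are the 2 exons printed whole above. SNHG14, a long transcript of the imprinted Prader-Willi region that hosts small nucleolar RNA clusters and runs antisense to UBE3A, fell likewise at the exon that starts at position 25306453 of chromosome 15. The junction into it carried 29.3% in depleted cells, against 68.8% in control cells, and the junction out of it 18.1%, against 57.1%. Both LSVs of SNHG14 were called, with posteriors of 0.999 and 0.997 in the authors' deposited table.

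Other members differed in the upstream exon they used. HHIP-AS1, beside the gene of hedgehog-interacting protein, took its upstream exon from position 145566859 in 97.5% in depleted and 69.2% in control cells, and the alternative from 145566440 in 2.5%, the floor of the table, and 30.7%. BZRAP1-AS1 used the junction from 56415040 in 51.6% in depleted and 93.3% in control cells. In the LSV that leaves its upstream exon, the same BZRAP1-AS1 junction carried 91.5% in depleted and 90.6% in control cells, so the difference was not seen from that side. SNAI3-AS1, named after a snail-family transcription factor, had a junction at 73.0% in depleted and 35.4% in control cells among those entering 1 exon. Among those leaving the other exon it carried 79.1% in depleted and 86.3% in control cells, the opposite direction. CD27-AS1, named after a costimulatory receptor of lymphocytes, had a junction from position 6574056 at 42.1% in depleted and 5.1% in control cells. The junction of CD27-AS1 from 6560635 was at 13.5% in depleted and 40.2% in control cells.

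Further called differences with PMA were of similar size. OSER1-AS1 had a junction to position 42846007 at 49.5% in depleted and 9.9% in control cells. RBM26-AS1, named after an RNA-binding protein, had a junction at 33.1% in depleted and 2.8% in control cells. LINC00342 skipped to a distant exon in 82.6% in depleted and 55.1% in control cells. PCBP1-AS1, named after a poly(rC)-binding protein, used the exon end at 70310670 in 9.1% in depleted and 38.5% in control cells. CDIPT-AS1, named after phosphatidylinositol synthase, had its main junction at 74.5% in depleted and 97.3% in control cells. The differences of these genes ran from 22.8 to 39.6 points in size.

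**Figure D2:**
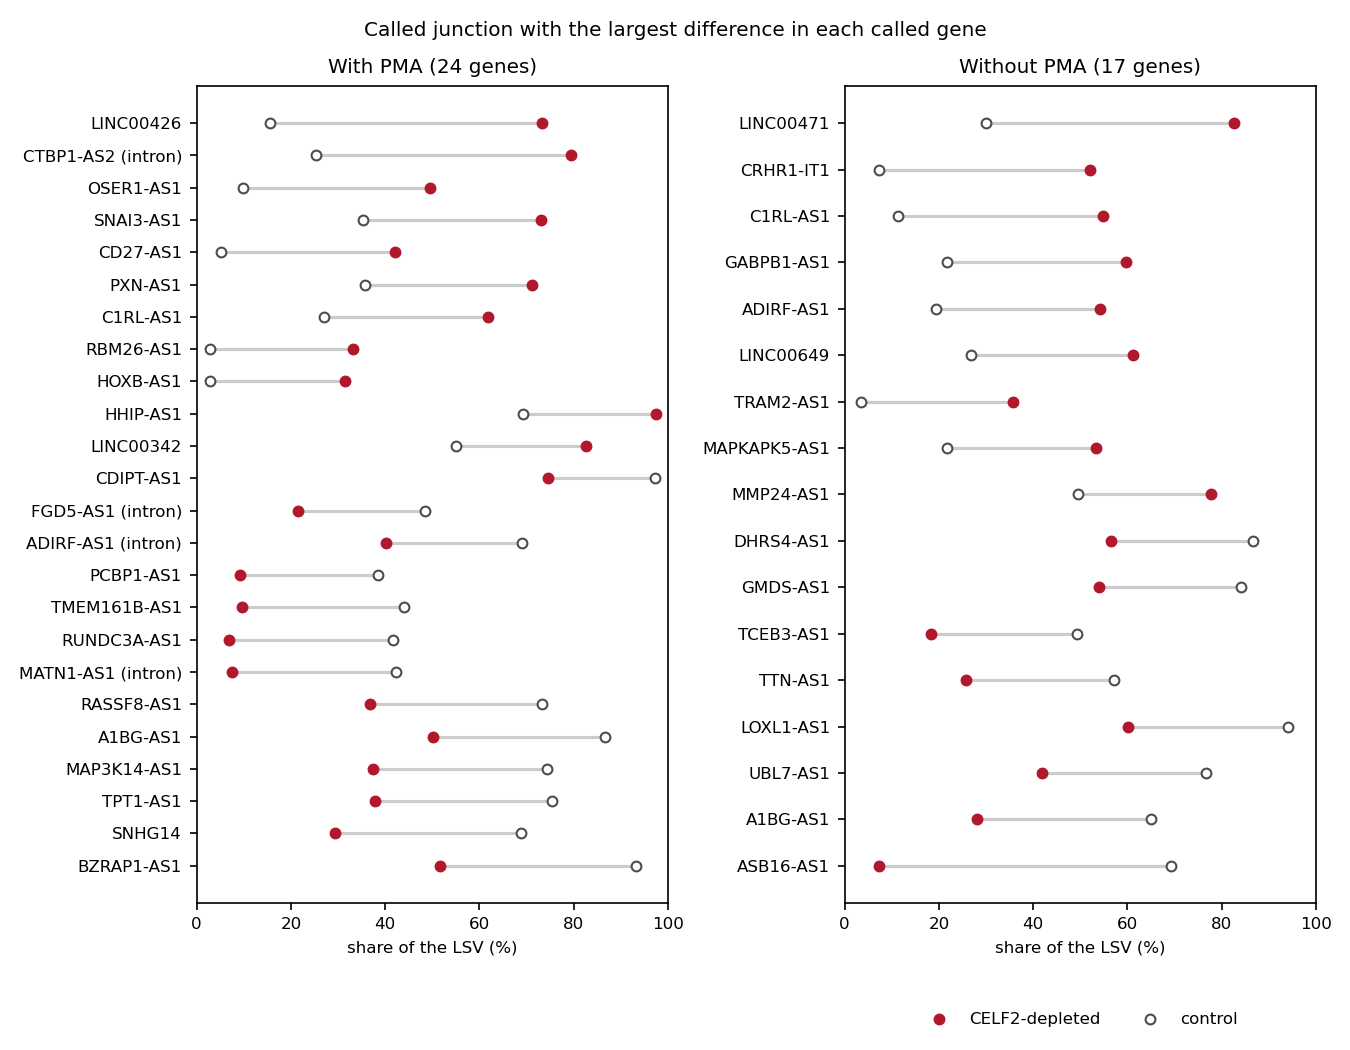
Share of the LSV, in percent, of the called junction or retained intron with the largest difference in each called member gene, in CELF2-depleted cells (filled) and control cells (open), with PMA (left, 24 genes) and without PMA (right, 17 genes). Points are the authors' pooled values for a group, and LINC00426 at the top left and ASB16-AS1 at the bottom right lie farthest apart.

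Without PMA, the largest difference was in ASB16-AS1, an antisense gene on chromosome 17. From the exon with its donor at position 42258991, the junction to 42254010 fell to 7.2% in depleted cells, against 69.2% in control cells, and the junction to 42257632 rose to 66.3%, against 17.3%. The authors' deposited table gave a posterior probability of 1.0 to both. LINC00471 used the donor that keeps the 15 capital nucleotides in 17.4% in depleted and 70.0% in control cells, and the donor that leaves them out took the rest, 82.6% of the LSV in depleted cells. Those 15 nucleotides start with GT, the letters found at nearly all human donor sites.

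CRHR1-IT1, within the gene of a receptor for corticotropin-releasing hormone, joined its exon to the nearer acceptor at 43717755 in 52.0% in depleted and 7.3% in control cells. The farther acceptor at 43723267 took the rest, 48.0% in depleted and 92.7% in control cells. C1RL-AS1, antisense to a complement-like protease gene, joined the exon ending at 7267815 to that starting at 7271495 in 54.8% in depleted and 11.3% in control cells. GABPB1-AS1, named after a subunit of the transcription factor GABP, took the upstream end at 50647742 in 59.7% in depleted and 21.7% in control cells, and that at 50647962 in 39.9% and 77.5%. DHRS4-AS1, named after a short-chain dehydrogenase, used the donor at 24422783 in 42.1% in depleted and 12.2% in control cells, and its other called LSV gave 42.6% and 12.5%. All of these differences were called, and each exchanged a capital stretch printed above for another.

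Retained introns were called lower in depleted cells in 5 member LSVs without PMA, 1.4% of 358, beside 0.327% in the whole table. TRAM2-AS1 kept an intron of 108 nucleotides in 64.3% in depleted and 96.6% in control cells. MAPKAPK5-AS1, named after a kinase activated by MAP kinases, kept an intron of 290 nucleotides in 46.5% in depleted and 78.2% in control cells, and in 45.0% and 75.3% seen from the downstream exon. MMP24-AS1 kept a stretch of 44 nucleotides in 22.3% in depleted and 50.5% in control cells. Higher retention was called in 1 member LSV, 0.279% of 358, beside 0.574% in the whole table: UBL7-AS1, with 57.4% in depleted and 23.0% in control cells.

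The remaining genes called without PMA were TTN-AS1, LOXL1-AS1, GMDS-AS1, TCEB3-AS1 and LINC00649. TTN-AS1, antisense to the gene of the muscle protein titin, had a junction from 179388363 at 73.0% in depleted and 42.1% in control cells. LOXL1-AS1, beside a lysyl oxidase gene, had a junction from 74220118 at 60.2% in depleted and 94.1% in control cells. Seen from the upstream exon that LOXL1-AS1 junction carried 96.1% in depleted and 97.1% in control cells. GMDS-AS1, beside the gene of a GDP-mannose dehydratase, had a junction at 54.0% in depleted and 84.2% in control cells. TCEB3-AS1, named after elongin A, had a junction at 18.4% in depleted and 49.3% in control cells. LINC00649 had a junction at 61.1% in depleted and 26.8% in control cells.

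A junction can be listed both from the exon it leaves and from the exon it enters. Called LSVs led by a retained intron were not matched to a second LSV. The leading called junction of 22 other called LSVs also stood in a second LSV. There 7 were again called, 12 differed in the same direction without a call, and 3 (in BZRAP1-AS1, SNAI3-AS1 and PXN-AS1) had the opposite sign. The 7 count the same junction from both of its LSVs in MAPKAPK5-AS1, DHRS4-AS1 and TPT1-AS1, and from a single LSV in SNHG14. They are therefore fewer junctions than LSVs, while the 12 and the 3 are all different junctions. Among the 12, HOXB-AS1 used the junction that removes its intron in 20.9% in depleted and 2.5% in control cells with PMA. TRAM2-AS1 used its own in 21.4% in depleted and 2.7% in control cells without PMA. UBL7-AS1 had 90.6% in depleted and 97.5% in control cells without PMA at the junction from 74771619. LINC00342 had 88.3% in depleted and 69.2% in control cells with PMA. Without PMA LINC00649 had 81.2% in depleted and 62.7% in control cells, TCEB3-AS1 29.2% and 53.1%, MMP24-AS1 92.6% and 76.1%, and ADIRF-AS1 50.3% and 23.5%. The remaining 4 of the 12 are given with LOXL1-AS1, TPT1-AS1, MAP3K14-AS1 and C1RL-AS1.

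By the kind of choice, 18 of the 32 member LSVs called with PMA exchanged different exons (56.2%), 13 involved a retained intron (40.6%) and 1 a splice site of the same exon (3.12%). Over all genes 64.2% of called LSVs exchanged exons, 30.5% involved a retained intron and 5.37% a splice site of the same exon. Without PMA 10 of 19 member LSVs exchanged exons (52.6%), 6 involved a retained intron (31.6%) and 3 a splice site of the same exon (15.8%). Over all genes 580 of 901 called LSVs exchanged exons (64.4%), 270 involved a retained intron and 51 a splice site of the same exon (5.66%). The retained intron share of members thus lay close to that of all called LSVs. Yet 48.6% of member LSVs held an intron without PMA, against 29.7% of all LSVs. Of member LSVs with an intron 1.96% were called without PMA, against 3.17% of those with none. Over all genes these shares were 1.29% and 0.854%. A1BG-AS1, ADIRF-AS1 and C1RL-AS1 were called in both states, among 38 genes called in either. Of the 38, 2 called without PMA had no LSV listed with PMA, and 3 called with PMA had none listed without. The share of all genes called in both states was not counted. C1RL-AS1 was called at different LSVs.

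A1BG-AS1, antisense to a plasma glycoprotein gene, differed alike in both states. Its junction from position 58864410 to 58864745 carried 50.2% in depleted and 86.7% in control cells with PMA, and 28.1% in depleted and 64.9% in control cells without PMA. ADIRF-AS1, named after an adipogenesis factor, kept its intron of 219 nucleotides at positions 88727307 to 88727525 of chromosome 10 in 47.2% in depleted and 72.0% in control cells with PMA. Without PMA the ADIRF-AS1 intron stood at 44.5% in depleted and 77.2% in control cells. C1RL-AS1 used the junction from 7267815 to 7271495 in 61.8% in depleted and 27.0% in control cells with PMA, counted among the junctions that leave the exon. Among those entering the next exon it stood at 52.3% in depleted and 34.3% in control cells with PMA and was not called. LINC00471, called without PMA alone, had 57.7% in depleted and 21.1% in control cells with PMA at its shorter donor, with a posterior of 0.882 in the authors' deposited table.

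Of the 24 member LSVs called with PMA and listed without, 18 differed in the same direction in both (75.0%), against 84.9% of all called LSVs. Of the 16 called without PMA and listed with it, 11 did (68.8%), against 86.9%. The same LSV was called in both states in 2 cases, 8.33% and 12.5% of those listed, against 18.0% and 34.4% over all genes. In each member that went the other way, the second state's difference was not called, so the opposite sign is a value and not a tested difference between states.

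CRHR1-IT1 had the widest spread over the 4 groups. Its nearer acceptor carried 70.8% in PMA-treated depleted cells, 80.4% in PMA-treated control cells, 52.0% in unstimulated depleted cells and 7.3% in unstimulated control cells. Unstimulated control cells stood apart from the other 3 groups. In GABPB1-AS1 the upstream end at 50647742 carried 2.8% in depleted and 26.0% in control cells with PMA, with a posterior of 0.911 in the authors' deposited table. Without PMA it carried 59.7% in depleted and 21.7% in control cells, so the control groups lay close together and the depleted groups lay on either side of them. The RUNDC3A-AS1 exon had an inclusion junction at 6.9% in depleted and 41.6% in control cells with PMA, and at 17.6% in depleted and 13.2% in control cells without PMA. PMA-treated control cells were thus the high group, as they were for the SNHG14 exon, with 29.3%, 68.8%, 36.0% and 32.6% in PMA-treated depleted, PMA-treated control, unstimulated depleted and unstimulated control cells.

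TMEM161B-AS1 also had PMA-treated control cells as its high group, at the junction from 87577923 to 87578420, with 9.6% in depleted and 44.0% in control cells with PMA, and 7.8% in depleted and 5.3% in control cells without PMA. A retained intron of TMEM161B-AS1 was also lower with PMA, at 19.6% in depleted and 48.6% in control cells. PCBP1-AS1 at the end 70310670 carried 9.1% in depleted and 38.5% in control cells with PMA, and 45.5% in depleted and 32.6% in control cells without PMA. In GMDS-AS1 and UBL7-AS1 unstimulated control cells had the highest share, but they stood apart from the other groups in GMDS-AS1 alone. GMDS-AS1 had 61.7% in depleted and 54.0% in control cells with PMA, and 54.0% in depleted and 84.2% in control cells without PMA. UBL7-AS1 had 67.9% in depleted and 56.6% in control cells with PMA, and 41.9% in depleted and 76.7% in control cells without PMA. In LINC00649 unstimulated depleted cells stood apart, with 29.3% in depleted and 37.5% in control cells with PMA, and 61.1% in depleted and 26.8% in control cells without PMA. In RBM26-AS1 PMA-treated depleted cells did, with 33.1% in depleted and 2.8% in control cells with PMA, and 2.6% in depleted and 8.8% in control cells without PMA.

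**Figure D3:**
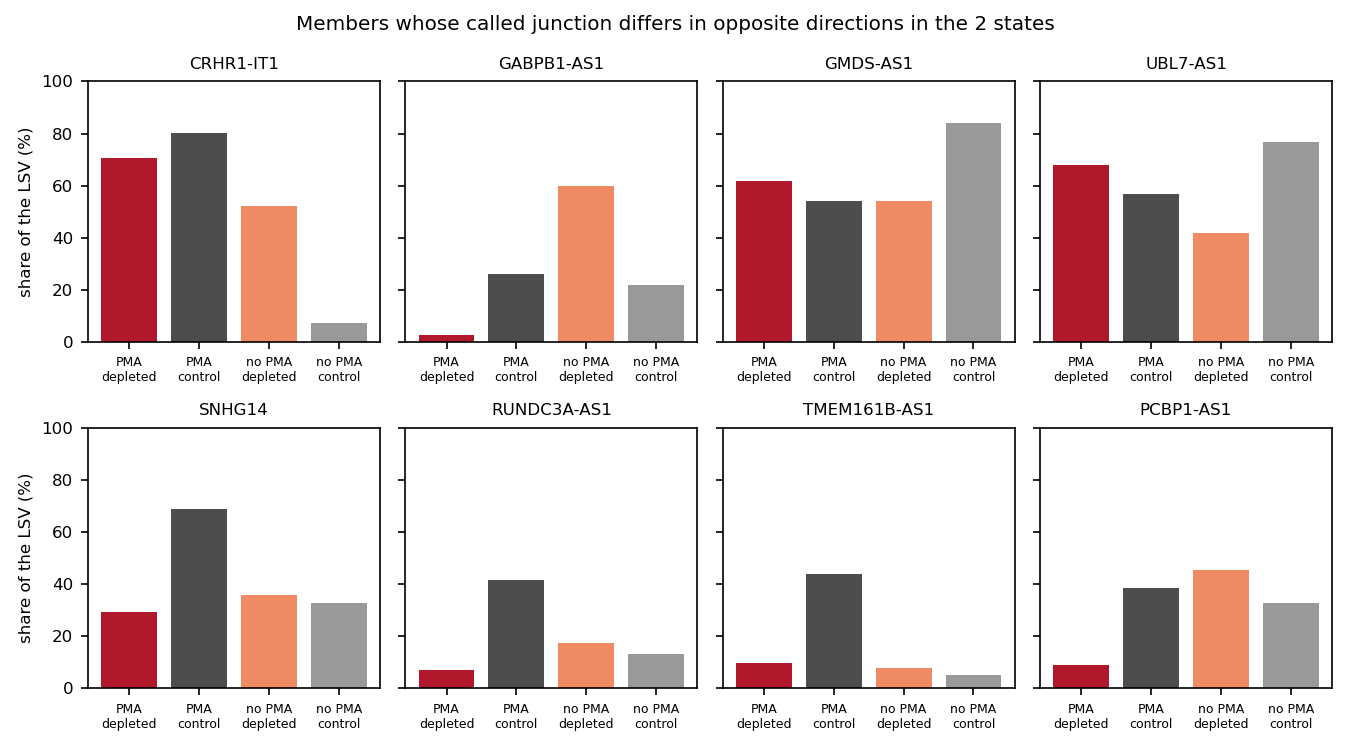
Share of the LSV, in percent, of 1 called junction in each of 8 members whose depleted and control cells differed in opposite directions with and without PMA. Bars are the authors' pooled values for PMA-treated depleted, PMA-treated control, unstimulated depleted and unstimulated control cells, and RUNDC3A-AS1, SNHG14 and TMEM161B-AS1 share a single high bar, PMA-treated control cells.

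The 17 SNHG genes had 133 LSVs with PMA and 134 without, and a retained intron was among the choices in 62.4% and 62.7% of them. Apart from SNHG14, none was called in either state: 2 of 133 LSVs were called with PMA and 0 of 134 without. Over all genes 1.87% of LSVs with PMA and 0.985% without were called, so with this few LSVs the SNHG counts lie near those of the whole table. Without PMA the authors' deposited table gave SNHG genes posteriors of up to 0.798, in SNHG14, where the junction with the largest difference carried 68.7% in depleted and 90.4% in control cells. SNHG17 came next in size without PMA, with 51.1% in depleted and 30.3% in control cells and a posterior of at most 0.697 in the authors' deposited table. SNHG21 had 57.0% in depleted and 77.1% in control cells, and SNHG7 27.9% and 8.4%. With PMA SNHG7 had 19.5% in depleted and 36.9% in control cells at its junction with the largest difference, SNHG16 had 70.3% and 52.7%, and SNHG12 had 54.2% and 69.6%.

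The other SNHG genes differed less. SNHG1, with 24 LSVs in each state the most of them, reached 10.9 points with PMA and 9.4 without. SNHG3, SNHG5, SNHG8, SNHG11, SNHG15 and SNHG20 stayed between 5.2 and 13.1 points in size in both states. SNHG6, SNHG9 and SNHG10 had at most 5.0 points, and SNHG25 at most 0.2 points. Across the 61 retained introns listed for SNHG genes, the share ran from 2.5% to 97.5% in every group. Its median over introns was 15.1% in depleted and 14.9% in control cells with PMA, and 15.4% in depleted and 14.4% in control cells without PMA. An intron listed in 2 LSVs entered with 1 value, which can differ from its share in 1 of them. An SNHG17 intron thus entered with 28.6% in depleted and 17.2% in control cells without PMA, against 51.1% and 30.3% in 1 LSV. Introns under 10% numbered 27 of 61 in depleted cells and 28 in control cells with PMA, and 27 in both without.

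**Figure D4:**
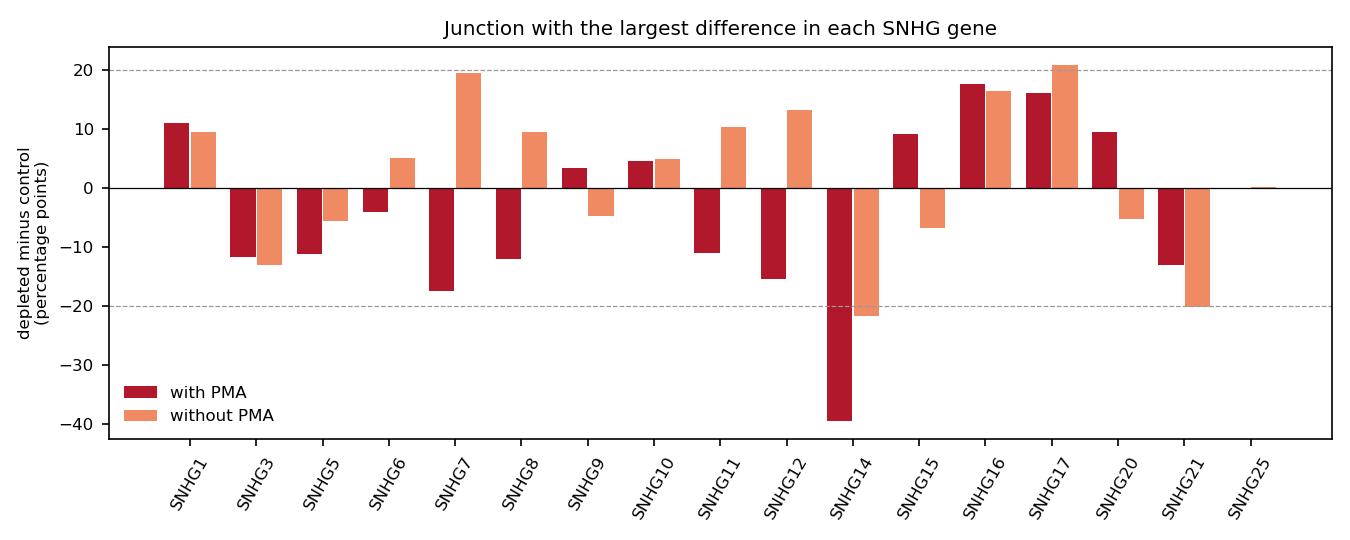
Depleted minus control share, in percentage points, of the junction with the largest difference in each of the 17 SNHG genes, with PMA (dark) and without (light); the junction can differ between states. Dashed lines mark 20 points in either direction, and SNHG14 with PMA is the bar that reaches farthest, at -39.5 points.

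By family, with PMA 21 of 130 -AS genes, 2 of 53 LINC genes, 1 of 17 SNHG genes and 0 of 1 -IT1 gene were called, beside 10.6% of all genes. Without PMA the counts were 14 of 144, 2 of 47, 0 of 17 and 1 of 1, beside 6.2% of all genes. The LINC genes called were LINC00426 and LINC00342 with PMA, and LINC00471 and LINC00649 without PMA.

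Among members called in neither state, the 8 with the largest differences with PMA were LINC00863, LRRC75A-AS1, LINC01184, LINC-PINT, RPARP-AS1, LINC01128, ALOX12-AS1 and LINC01550. The junction of LINC00863 carried 43.6% in depleted and 14.3% in control cells, and that of LRRC75A-AS1 24.5% and 52.7%. ALOX12-AS1, named after a lipoxygenase, had 96.9% in depleted and 71.9% in control cells and came closest to a call at that junction, with a posterior of 0.947 in the authors' deposited table. LINC01184 had 41.7% in depleted and 69.6% in control cells, LINC-PINT 74.4% and 47.3%, and RPARP-AS1 26.6% and 53.4%. LINC01128 had 26.5% in depleted and 51.9% in control cells, and LINC01550 46.4% and 21.5%.

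Among the same members, the 8 with the largest differences without PMA were FOXD3-AS1, LINC01004, RNF144A-AS1, STX18-AS1, ENTPD1-AS1, PSMG3-AS1, TRIM52-AS1 and OIP5-AS1. FOXD3-AS1, named after a forkhead factor, kept an intron in 46.1% in depleted and 15.9% in control cells. TRIM52-AS1 kept an intron in 34.7% in depleted and 60.3% in control cells without PMA and in 35.3% in depleted and 57.7% in control cells with PMA. The authors' deposited table gave this intron a posterior of 0.943 without PMA. RNF144A-AS1 had a junction at 96.8% in depleted and 67.6% in control cells, and LINC01004 one at 51.9% and 22.5%. STX18-AS1 had 40.7% in depleted and 12.5% in control cells, ENTPD1-AS1 50.5% and 78.0%, PSMG3-AS1 40.4% and 14.3%, and OIP5-AS1 78.9% and 53.5%.

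Members ending in -AS1, -AS2 or -IT1 were set beside the genes they are named after. With PMA, 107 of these 131 members had such a partner with LSVs in the same table, for 106 of them on the opposite strand, and for 6 of the 107 the partner was called (5.61%). Without PMA 119 of 145 had one, for 118 on the opposite strand, and for 7 it was called (5.88%). PAXIP1, which was not called, counts under both PAXIP1-AS1 and PAXIP1-AS2. Over all genes the shares were 10.6% and 6.2%. Member and partner were both called for C1RL-AS1 in both states and for TPT1-AS1 with PMA. TPT1 had a junction at 2.9% in depleted and 34.1% in control cells with PMA. C1RL had a junction at 26.3% in depleted and 60.3% in control cells with PMA, and a retained intron at 30.1% in depleted and 2.5% in control cells without PMA. RUSC1 and MFI2 were called in both states without a call in RUSC1-AS1 or MFI2-AS1.

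The libraries were strand-specific, per the labels, and 0 junctions of a member were also listed under a gene on the opposite strand. A further 15 member LSVs with PMA and 14 without, in 4 genes, had a junction that was also listed under another gene on the same strand, and none of these LSVs was called. Of the called retained introns, 0 of 10 with PMA and 1 of 5 without overlapped an exon listed for the opposite strand, the intron of UBL7-AS1. Exons of genes without a listed LSV could not be counted, among them MATN1 and FGD5 with PMA and MMP24 without. Reads from antisense transcripts could enter a retained intron if strand was not used in counting, which the sources used here do not state. Their part in the UBL7-AS1 value was not tested.

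PMA itself went with differences in many members, described here by size since the tables give no probability between states and were quantified separately. In depleted cells 31 of 176 member genes differed by at least 20 points at any junction (17.6%), beside 11.4% of all genes. In control cells 35 of 176 did (19.9%), beside 14.7% of all genes. In both kinds of cells 12 member genes did, and the matching share of all genes was not counted. The median over member genes of the largest difference was 9.2 points in depleted and 9.4 points in control cells, against 7.6 and 7.9 over all genes.

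Members called under depletion in either state are left out of what follows, although several differed as much between states, such as CRHR1-IT1 in control cells and GABPB1-AS1 in depleted cells. SLC16A1-AS1, named after the monocarboxylate transporter MCT1, had the largest difference between states in depleted cells. Its junction from 113499578 to 113503099 of chromosome 1 carried 20.2% with PMA and 82.7% without in depleted cells, and 27.1% with PMA and 80.0% without in control cells. Within each state, depleted and control cells lay close together. LINC01237 also differed between states in both kinds of cells. At its junction from 242824280 it had 33.2% with PMA and 68.7% without in depleted cells, and 20.4% with PMA and 76.0% without in control cells. The competing junction from 242823629 went the other way, with 62.8% with PMA and 24.0% without in depleted cells, and 63.8% with PMA and 18.0% without in control cells. LINC01569 had 45.6% with PMA and 20.4% without in depleted cells, and 45.2% and 29.6% in control cells. PRKCQ-AS1, named after protein kinase C theta, an isoform that acts in T cell receptor signalling, had 38.2% with PMA and 13.1% without in depleted cells, and 30.4% and 20.7% in control cells. LINC01481 had 23.5% with PMA and 48.0% without in depleted cells, and 13.0% and 31.2% in control cells.

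Elsewhere the difference between states lay mainly in 1 kind of cell. NOP14-AS1, named after a ribosome biogenesis factor, had a junction at 52.6% with PMA and 90.0% without in depleted cells, and at 65.1% and 67.4% in control cells. LINC01184 had 41.7% with PMA and 75.8% without in depleted cells, and 69.6% and 63.7% in control cells. RPARP-AS1 had a junction at 73.2% with PMA and 67.9% without in depleted cells, and at 46.4% and 82.9% in control cells. PSMG3-AS1 had 36.7% with PMA and 40.4% without in depleted cells, and 44.6% and 14.3% in control cells. COX10-AS1, named after a factor of cytochrome oxidase assembly, had 80.5% with PMA and 71.2% without in depleted cells, and 58.9% and 84.1% in control cells.

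The remaining members among the 8 with the largest differences in control cells, again of those called in neither state, were LINC00969, LINC01260 and LINC01004. LINC00969 had 82.5% with PMA and 92.3% without in depleted cells, and 67.7% and 96.8% in control cells. LINC01260 had 60.6% with PMA and 78.3% without in depleted cells, and 61.0% and 89.1% in control cells. LINC01004 had its largest difference at a different junction in each kind of cell. That from 104594353 to 104653379 had 16.3% with PMA and 39.6% without in depleted cells, and 32.7% and 62.0% in control cells. That from 104591679 to 104594147 had 31.1% with PMA and 55.8% without in depleted cells, and 34.1% and 35.5% in control cells. Whether the difference between states itself differed between depleted and control cells was not tested for any member.

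**Figure D5:**
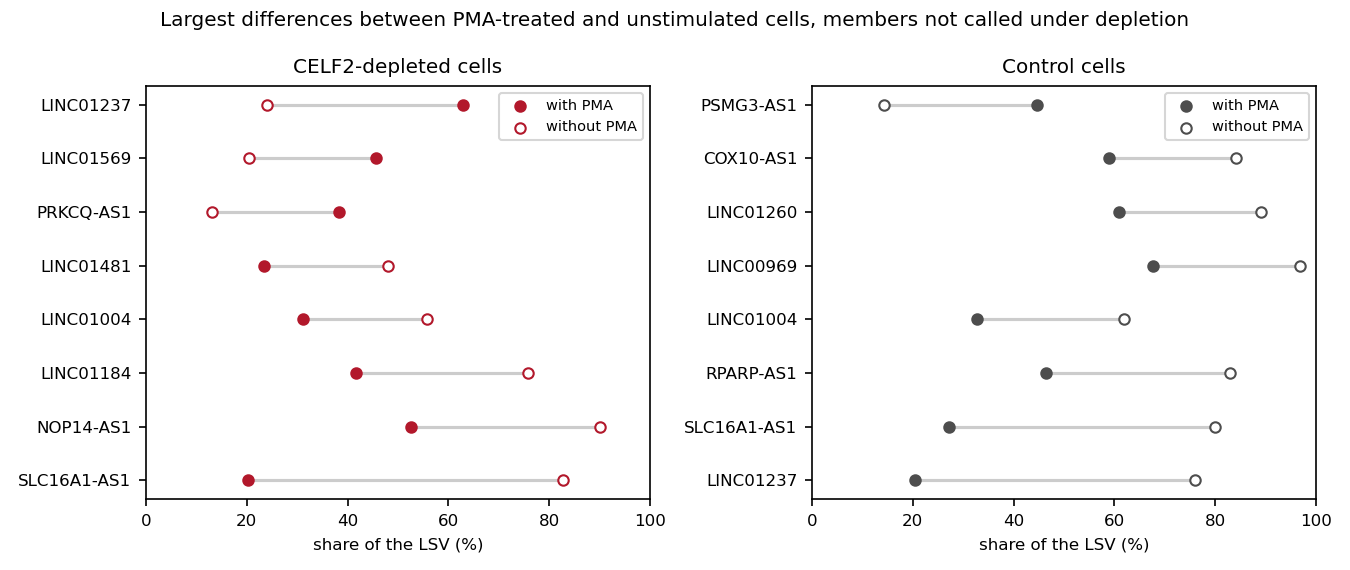
Share of the LSV, in percent, with PMA (filled) and without (open) for the 8 members with the largest differences in CELF2-depleted cells (left) and in control cells (right) among those not called under depletion. SLC16A1-AS1 and LINC01237 appear on both sides with wide gaps, and points are the authors' pooled values for a group.

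Other long noncoding RNAs with names of their own, outside the naming rule, served as a comparison. Of 53 on a list, 15 had LSVs with PMA and 13 without, and 2 and 1 of them were called. JPX, a noncoding RNA of the X inactivation centre, had a junction at 45.9% in depleted and 85.3% in control cells with PMA. TUG1 kept an intron in 53.4% in depleted and 91.2% in control cells with PMA. RMST had a junction at 97.3% in depleted and 71.0% in control cells without PMA. No shares are given for so short a list.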

How the data were processed

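The authors sequenced polyadenylated RNA from JSL1 cells with a strand-specific kit, per the labels' protocols. STAR 2.5.1b and the build hg19 are named in the submitters' processing notes. The authors deposited 2 tables in the format of VOILA, the output program of MAJIQ, 1 for each state, and their software version, annotation, read filters and use of strand are not stated there. Per the file headers, each line is 1 LSV with lists, 1 entry a junction, of the expected share (PSI) per group, the expected change, and the posterior probability that the change reaches 20 points, which is not a p-value. The values pool both libraries, so depth, spread between libraries and leave-one-out results could not be had. The number of per-sample columns not used was 0.

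From these, members were chosen by name, shares were multiplied to percent, differences were taken as depleted minus control or PMA minus unstimulated, and LSVs were called at a posterior of 0.95 over the whole table. Differences between states used LSVs with the same ID in both tables and a size of 20 points. No test was run beyond the authors' posterior. Gene types and sequences came from GENCODE release 29, matched by gene ID and, for sequences, by a unique intron of equal length. No hg19 genome was used here. Scripts ran in Python 3.11.15 with pandas 2.3.3, numpy 2.4.6 and matplotlib 3.10.9. Only the limit for a call and the naming rule were checked, on simulated posteriors and example names. Named genes were all SNHG members, all members called in either state, and for each of 4 contrasts the 8 other members with the largest difference. The comparison list and the 8 T cell markers were written by hand. Members and lists were chosen with earlier results of these data known. Alternatives were other posteriors, the expected change, LSVs without junctions absent from the annotation, LSVs of 2 junctions, LSVs whose junctions are listed under 1 gene ID, and the same junction in its second LSV.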

Additional observations from a re-analysis of the deposited data

How the results depend on the processing

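No paired analysis was possible because each group column pools both libraries and carries no replicate number. For the same reason no library could be left out. Of 32 recounts, 10 lay within 1.5 times the reported count and 22 did not.

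At a posterior of 0.99, called member LSVs numbered 19 with PMA and 12 without, in 13 and 10 genes, against the reported 32 and 19 LSVs in 24 and 17 genes. Counting LSVs with an expected change of at least 20 points gave 66 and 45 LSVs in 48 and 37 genes. Without LSVs that hold a junction absent from the annotation, 8 and 8 LSVs in 8 and 7 genes were left, and among LSVs of 2 junctions alone 6 and 5 LSVs in 5 and 5 genes, both by construction from fewer LSVs. Member genes that differed with PMA, reported as 31 in depleted and 35 in control cells, numbered 10 and 11 at 30 points, 11 and 13 without junctions absent from the annotation, and 8 and 10 among LSVs of 2 junctions. In its second LSV, the called junction reversed to 0.9 points in BZRAP1-AS1, -7.2 points in SNAI3-AS1 and -0.8 points in PXN-AS1, all with PMA, and the cause was not tested.

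Read depth behind a share is unknown, and among differences that were not called only the authors' posterior separates those near 0 (CELF2 without PMA, at most 1.38e-05) from those just under the limit (ALOX12-AS1 with PMA, 0.947, both in the authors' deposited table). Calls rest on the authors' model for 1 clonal line, with no spread between cultures.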
